A study of Homo sapiens with 4 samples.

Results

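Mucins and carcinoembryonic antigen-related cell adhesion molecules (CEACAMs) were examined in Ca9-22 cells after knockdown of KPNA4. The 10 genes were chosen by name, with earlier results of these data known. They were the transmembrane mucins MUC1, MUC4, MUC15, MUC16 and MUC20, and CEACAM1, CEACAM5, CEACAM6, CEACAM7 and CEACAM19. Of these, 9 had a probe on the array and MUC20 had none that could be matched. The array measured 27708 genes in all, of which 19740 were named and the others were counted by their array identifier. Every probe of a gene was kept, which gave 9 mucin probes and 7 CEACAM probes. Ca9-22 cells are an established line of gingival squamous carcinoma, and KPNA4 encodes karyopherin-α4, an importin that carries proteins into the nucleus. The labels give 2 cultures as negative control cells and 2 as KPNA4 knocked down cells, both transfected with siRNA and harvested 3 days later, whereas the methods of the study describe short hairpin RNAs. All 4 cultures are of the one line, so other lines and normal gingiva were not compared. Total RNA of each culture was labeled with 1 dye and hybridized to its own Agilent whole human genome array on a shared slide.

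Transmembrane mucins are long glycoproteins whose extracellular domains carry dense chains of O-linked sugars, and they stand on the apical surface of epithelia as a barrier and as a scaffold for receptors. CEACAMs are adhesion molecules of the immunoglobulin superfamily. CEACAM1 and CEACAM19 span the membrane, and CEACAM5, CEACAM6 and CEACAM7 are held by a glycosylphosphatidylinositol (GPI) anchor. Several of these proteins are shed from carcinomas and serve as serum markers, such as the CA125 antigen on MUC16 and carcinoembryonic antigen itself, which is CEACAM5.

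Promoter sequences are shown for the mucins that changed and for the neighboring genes CEACAM5 and CEACAM6, so that the start regions of members with unlike values can be read side by side. They are the 250 bases before the annotated start, 5′ to 3′ on the strand of the gene, from RefSeq on the build GRCh38.p14. Capitals mark matches on either strand to the AP-1 letters TGANTCA, the E-box CACGTG, the GC box GGGCGG or the CACCC box. MUC16 has a pair of annotated starts far apart, and both windows are given.
MUC1 (chr1:155192910-155193159, minus strand): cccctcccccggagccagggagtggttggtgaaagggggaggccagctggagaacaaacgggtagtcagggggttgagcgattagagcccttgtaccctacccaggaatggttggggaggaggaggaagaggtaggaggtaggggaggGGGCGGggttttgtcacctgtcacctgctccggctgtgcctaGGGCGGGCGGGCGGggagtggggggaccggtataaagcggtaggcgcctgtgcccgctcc
MUC16, downstream start (chr19:9010410-9010659, minus strand): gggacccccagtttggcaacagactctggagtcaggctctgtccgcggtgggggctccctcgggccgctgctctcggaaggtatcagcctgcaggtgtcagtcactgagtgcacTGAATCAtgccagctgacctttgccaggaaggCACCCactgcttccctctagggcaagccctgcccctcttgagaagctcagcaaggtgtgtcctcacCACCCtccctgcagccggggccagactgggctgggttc
MUC16, upstream start (chr19:9065752-9066001, minus strand): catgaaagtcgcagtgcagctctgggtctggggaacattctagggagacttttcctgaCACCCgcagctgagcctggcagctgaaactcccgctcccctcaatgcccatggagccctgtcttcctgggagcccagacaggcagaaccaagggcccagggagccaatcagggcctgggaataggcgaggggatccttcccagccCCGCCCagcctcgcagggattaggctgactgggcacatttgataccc
CEACAM5 (chr19:41708376-41708625, plus strand): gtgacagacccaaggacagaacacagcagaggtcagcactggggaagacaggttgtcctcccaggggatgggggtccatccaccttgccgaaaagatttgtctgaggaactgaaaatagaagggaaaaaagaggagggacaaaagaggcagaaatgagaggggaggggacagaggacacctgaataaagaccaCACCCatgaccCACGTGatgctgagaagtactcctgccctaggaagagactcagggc
CEACAM6 (chr19:41755280-41755529, plus strand): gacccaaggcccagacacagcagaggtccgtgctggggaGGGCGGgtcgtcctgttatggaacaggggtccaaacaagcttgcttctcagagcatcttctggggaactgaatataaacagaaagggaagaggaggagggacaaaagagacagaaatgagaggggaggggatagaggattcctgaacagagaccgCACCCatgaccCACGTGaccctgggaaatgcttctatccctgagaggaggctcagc

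The MUC1 window held 4 GC boxes, of which the 3 nearest to the start overlapped each other, and none of the other letters searched. The downstream MUC16 window held 1 AP-1 match, 136 bases before the start, and 2 CACCC boxes. The upstream MUC16 window held 1 GC box and 1 CACCC box. CEACAM5 and CEACAM6 each held an E-box, 46 and 45 bases before the start, with a CACCC box just upstream of it. The CEACAM6 window alone of this pair held a GC box, 211 bases before the start. No other matches in these 5 windows overlapped. Among 35116 RefSeq promoter windows of the same length, 6.57% held the AP-1 letters, 6.34% the E-box, 42.6% a GC box and 54.7% a CACCC box. A match describes the sequence and does not show that a factor bound it. The CEACAM5 and CEACAM6 windows were 74.6% identical in a global alignment, and the CEACAM7 window was 80.5% identical to that of CEACAM5 and 79.9% to that of CEACAM6. No promoter entry was matched for MUC15, MUC20 or CEACAM19.

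The values below are log2 processed intensities relative to the 75th percentile of the same array, so that 0 is that percentile and each unit below it is a halving of the signal. A probe was tested only if both arrays of 1 group, or of both, measured it well above background. That percentile was at an intensity of 1466 and 1381 in the controls and at 1938 and 2096 after knockdown. Because of this difference, the median log2 fold change of all genes was -0.10 with the scaling and 0.40 without it, and small changes below 0 depend on it. KPNA4 itself stood at 4.02 and 4.03 in the controls and at 2.36 and 2.05 after knockdown, which is a fall (log2 fold change -1.82, limma adjusted p = 0.00183). All 10 squamous epithelial markers, among them KRT5, KRT14 and TP63, had a clear signal on each of the 4 arrays. The arrays of the groups were also set side by side for 5 genes listed under cell line identity. These genes were picked with earlier results of these data known, so their pattern is a description and not separate evidence. RPS4Y1, HLA-DRB4, HLA-DRB5, GSTM1 and CHI3L2 stood well above background on each knockdown array and on neither control array. RPS4Y1 was at least 43.4-fold and HLA-DRB5 at least 5.9-fold higher after knockdown, whereas HLA-DRB4, at intensities of 6.99 and 8.10 against 14.0 and 12.9, did not pass the test (limma adjusted p = 0.124). Whether the 4 cultures came from the same stock was not tested, and any such difference cannot be told apart from the knockdown. Every knockdown value below rests on these 2 arrays.

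MUC16 and MUC1 rose after KPNA4 knockdown, and no member gene fell. Of the 9 genes with a probe, 7 passed the filter and were tested with limma over 19550 genes, and 2 of these 7 were higher, 0 were lower and 5 did not pass the threshold. At an unadjusted p under 0.05 limma gave 3 higher and 0 lower. The added gene, CEACAM6, passed the filter only through the knockdown arrays, and the share of all genes at this looser threshold was not taken. At the adjusted threshold 20.3% of all genes tested were higher and 29.5% lower. The count of 2 is thus close to the background and says nothing particular to this family. The median log2 fold change of the 7 tested members was 0.17, beside -0.10 for all genes. At the level of probes, 12 of 16 were tested, with 4 higher, 1 lower and 7 neither, against a background of 20.0% higher and 28.3% lower among 24198 probes. One of the 4 higher probes, the dimmer probe of MUC16, passed the filter only through the knockdown arrays. The number of higher members was 2 or more under every alternative but one. Under that one, normexp background correction, limma called 0 genes of the whole array at an adjusted p under 0.05, where 1162 of 19550 had an unadjusted p under 0.05, and 1 of them was a member. Without control replicate 2 the number of higher members was 4.

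**Figure D1:**
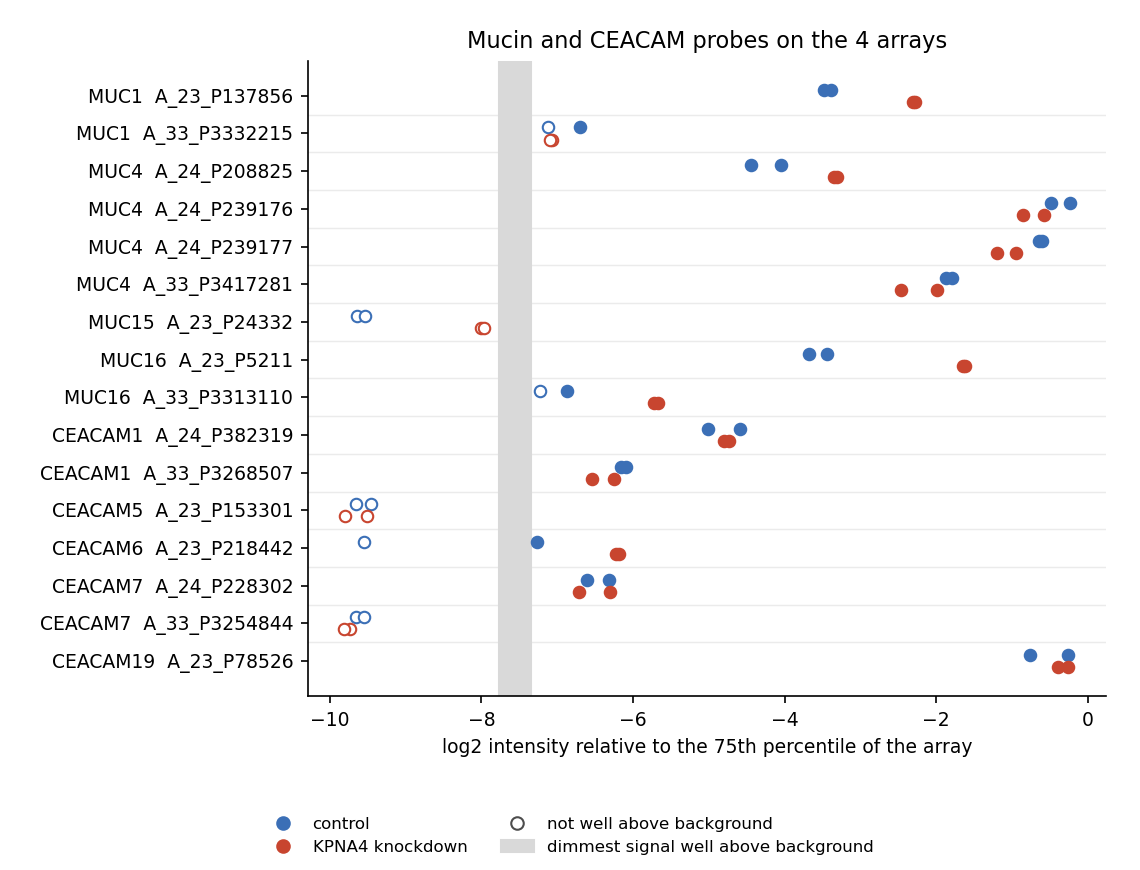
Log2 intensity relative to the 75th percentile of the array for the 16 mucin and CEACAM probes, with 1 point per array (2 control arrays in blue, 2 KPNA4 knockdown arrays in red). Open points were not well above background, and the gray band spans the dimmest signal that was well above background on each of the 4 arrays. Both knockdown points lie to the right of both control points for the MUC16 probes and for MUC1 probe A_23_P137856, while the CEACAM19 points of the groups are mixed.

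MUC16, the very large mucin that carries CA125, had the largest change among the mucins. Its brighter probe, A_23_P5211, had values of -3.44 and -3.68 in the controls and of -1.64 and -1.62 after knockdown. The intensities behind them were 135 and 107 in the controls and 621 and 682 after knockdown. Both knockdown arrays were above both control arrays, and the gap of 0.24 between the controls was small beside the difference. The log2 fold change was 1.93 (standard error 0.10, 95% confidence interval 1.66 to 2.21, limma adjusted p = 0.0012), which is 3.82-fold. The second probe, A_33_P3313110, is assigned to the same transcript, NM_024690. It had values of -6.87 and -7.23 in the controls and of -5.67 and -5.73 after knockdown, and 1 of the 2 controls was not well above background. Both knockdown arrays were above both controls here too, and the fitted log2 fold change was 1.35 (standard error 0.14, limma adjusted p = 0.00448). Since this probe entered the test only through the group in which it was brighter, the rise of MUC16 is taken from A_23_P5211 alone. The MUC16 gene value stayed between 1.64 and 2.43 under every alternative, and its call was lost only under normexp correction (1.78, limma adjusted p = 0.651). In RNA from whole cultures, more cells with the transcript and more transcript per cell cannot be told apart, here and for every member below.

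MUC1, a mucin of most simple epithelia whose cytoplasmic tail binds signaling proteins, rose as well. Probe A_23_P137856, assigned to NM_002456, had values of -3.38 and -3.48 in the controls and of -2.31 and -2.28 after knockdown, with intensities of 140 and 124 against 391 and 430. The groups lay apart, and the gaps within them were 0.09 and 0.03. The log2 fold change was 1.13 (standard error 0.06, 95% confidence interval 0.95 to 1.31, limma adjusted p = 0.00145), a 2.19-fold rise that ranged from 1.09 to 1.63 on the log2 scale over the alternatives. Here too the call was lost only under normexp correction (1.36, limma adjusted p = 0.651). The other MUC1 probe, A_33_P3332215, is assigned to another transcript, NM_001044392. Its values were -7.12 and -6.70 in the controls and -7.07 and -7.10 after knockdown, so the groups overlapped. It was well above background on control array 2 alone and was not tested, so only 1 probe shows the rise of MUC1.

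MUC4, a mucin that associates with the receptor ERBB2, was measured by 4 probes of the transcript NM_018406 that did not change alike. The brightest, A_24_P239176, represented the gene. It had values of -0.49 and -0.24 in the controls and of -0.58 and -0.86 after knockdown, a log2 fold change of -0.35 that did not pass the threshold (95% confidence interval -0.74 to 0.03, limma adjusted p = 0.104). A_33_P3417281 was similar, with -1.79 and -1.87 against -1.99 and -2.46 (log2 fold change -0.39, limma adjusted p = 0.132). A_24_P239177 had -0.64 and -0.60 in the controls and -0.95 and -1.20 after knockdown, and it was the one member probe that fell, by 0.45 on the log2 scale (standard error 0.11, limma adjusted p = 0.0299). That call was lost without control replicate 1 (-0.47, limma adjusted p = 0.0864), without control replicate 2 (-0.43, limma adjusted p = 0.101) or without knockdown replicate 2 (-0.32, limma adjusted p = 0.105), and the sign turned without scaling (0.05).

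The dimmest MUC4 probe, A_24_P208825, went the other way. It had values of -4.05 and -4.45 in the controls and of -3.31 and -3.35 after knockdown, with intensities of 88.5 and 63.3 against 195 and 206. Both knockdown arrays were above both controls, and the log2 fold change was 0.92 (standard error 0.15, limma adjusted p = 0.0123). Over the alternatives it ranged from 0.72 to 1.42, and the call was lost under normexp correction alone (1.33, limma adjusted p = 0.657). Scaling does not enter a ratio within an array. The log2 ratio of this probe to the mean of the other 3 was -3.08 and -3.54 in the controls and -2.14 and -1.84 after knockdown, a difference of 1.32. The probe was singled out after its values were seen, and an exact permutation test of 2 arrays against 2 cannot go below p = 0.333. These values show unequal change between the probes, and the MUC4 transcripts or other sequences each one detects were not tested.

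MUC15, a short transmembrane mucin, was near the limit of detection. Its probe A_23_P24332 had values of -9.65 and -9.54 in the controls and of -8.00 and -7.97 after knockdown, with intensities of 1.83 and 1.86 against 7.55 and 8.37. It was significantly above the local background on both knockdown arrays and on neither control array, but well above background on none of the 4. The knockdown values were the higher ones, and since neither group had a measured level no fold change is given. MUC20, known to bind the receptor MET, lies next to MUC4 on chromosome 3 and has no value here.

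**Figure D2:**
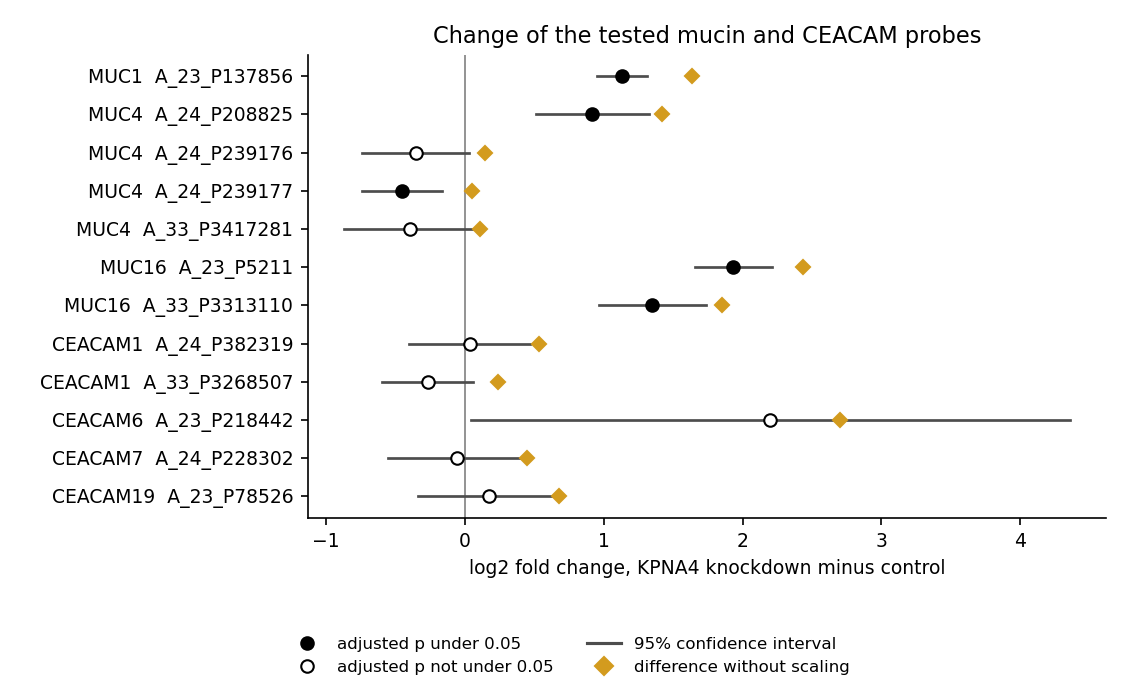
Log2 fold change (KPNA4 knockdown minus control, 2 arrays each) of the 12 tested mucin and CEACAM probes, with 95% confidence intervals from limma. Filled circles have an adjusted p under 0.05, and diamonds give the difference without scaling between arrays. Both MUC16 probes and 1 MUC1 probe lie above 0 on either scale, the 4 MUC4 probes split, and the CEACAM6 interval runs from 0.04 to 4.36.

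Among the CEACAMs, no gene passed the threshold. CEACAM6, a GPI-anchored adhesion molecule that is raised in many carcinomas, was not clearly measured in the controls, and its difference had the widest error of the members tested. Probe A_23_P218442 had values of -7.27 and -9.55 in the controls and of -6.23 and -6.19 after knockdown, with intensities of 9.48 and 1.85 against 25.8 and 28.7. Both knockdown arrays were above both controls and well above background, but the controls were 2.27 apart, and only control array 1 was well above background. The probe thus entered the test only through the knockdown arrays, and the fitted difference depends on a control value at the floor of the signal. It was 2.20 on the log2 scale (standard error 0.80, limma adjusted p = 0.0853, unadjusted p = 0.0498). Without control replicate 2 the value was 1.06 (limma adjusted p = 0.0107), and without control replicate 1 it was 3.34 (limma adjusted p = 0.00571), so the size of the difference rests on which control is used. Without scaling (2.70, limma adjusted p = 0.0039) and with limma's trend option (2.20, limma adjusted p = 0.0458) it passed as well.

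CEACAM1, which inhibits signaling through its cytoplasmic tail and mediates adhesion between cells, was measured well above background by both of its probes. A_24_P382319 had values of -4.59 and -5.01 in the controls and of -4.73 and -4.80 after knockdown. The knockdown values lay between the controls, and the log2 fold change was 0.03 (95% confidence interval -0.40 to 0.47, limma adjusted p = 0.87). Without scaling this probe passed the threshold (0.54, limma adjusted p = 0.01965), and under normexp correction it did not (1.09, limma adjusted p = 0.651). A_33_P3268507, assigned to the transcript NM_001184816, had -6.09 and -6.16 against -6.25 and -6.54. Its groups did not overlap, and its log2 fold change of -0.27 did not pass the threshold (95% confidence interval -0.59 to 0.06, limma adjusted p = 0.136).

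CEACAM19, a transmembrane member of the family, was detected on every array. Its values were -0.76 and -0.26 in the controls and -0.27 and -0.40 after knockdown, with both knockdown values between the controls (log2 fold change 0.17, 95% confidence interval -0.35 to 0.70, limma adjusted p = 0.477). It passed the threshold without control replicate 2 (0.43, limma adjusted p = 0.0477) and without scaling (0.68, limma adjusted p = 0.00415). CEACAM5, the carcinoembryonic antigen of clinical tests, was well above background on no array, with intensities of 1.83 and 1.96 in the controls and 2.65 and 2.36 after knockdown. CEACAM7, a GPI-anchored member known from the colon, had 1 probe that was likewise well above background on no array (A_33_P3254844, intensities 1.82 to 2.33). Its other probe, A_24_P228302, had values of -6.60 and -6.31 in the controls and of -6.72 and -6.31 after knockdown, and these overlapped (log2 fold change -0.06, 95% confidence interval -0.56 to 0.45, limma adjusted p = 0.815). CEACAM7, CEACAM5 and CEACAM6 follow each other on chromosome 19. Of these 3 neighbors, whose promoter windows are described above, CEACAM6 was the one with both scaled knockdown values above both scaled controls. Without scaling, the intensities of CEACAM5 were also higher on both knockdown arrays, though well above background on none. So were those of CEACAM7 probe A_24_P228302, at 15.1 and 17.4 in the controls and 18.4 and 26.4 after knockdown. A difference between the changes of these genes was not tested.

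**Figure D3:**
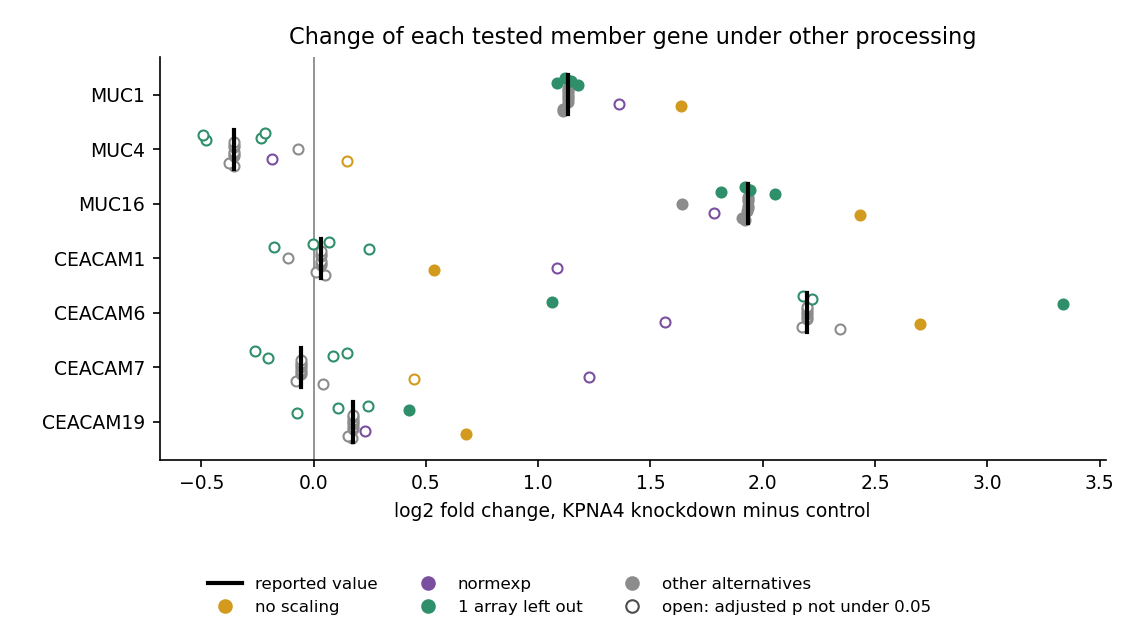
Log2 fold change of the 7 tested member genes under each processing alternative, with the reported value as a black bar. Filled points have a limma adjusted p under 0.05. The MUC1 and MUC16 values stay above 1 throughout and are open under normexp correction alone, whereas CEACAM6 runs from 1.06 to 3.34 and CEACAM1, CEACAM7, CEACAM19 and MUC4 have values on both sides of 0.

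The other genes of these families were for the most part not tested or not past the threshold, and their medians stand beside -0.10 for all genes. Their counts stand beside 20.3% higher and 29.5% lower among all genes tested. Of 19 further mucins and mucin-like proteins, 16 had a probe and 7 were tested, with 1 higher, 2 lower and a median log2 fold change of -0.25. MCAM, an adhesion molecule of the endothelium and melanoma also called MUC18, rose from -4.49 and -4.28 to -3.12 and -3.26 (limma adjusted p = 0.00324). The gel-forming mucin MUC2 (-0.37, limma adjusted p = 0.0118) and OVGP1, the oviductal glycoprotein (-0.28, limma adjusted p = 0.0262), were lower. Both turned above 0 without scaling, at 0.14 and 0.22, and no other MUC2 probe passed. The count of 2 lower was 0 without either knockdown array and 1 without control replicate 1. Of 17 other CEACAM genes and pregnancy-specific glycoproteins (PSGs), the secreted relatives of the CEACAMs from the placenta, 13 had a probe and 7 were tested, with 4 higher, 0 lower and a median of 0.40. All 4 were PSGs, and 3 were higher where all 4 arrays had to be well above background. Without either control array 2 were higher, and without knockdown replicate 1 1 was lower. PSG9 was well above background after knockdown alone, so it entered the test only through those arrays, and was at least 1.25-fold higher. PSG5 (0.88, limma adjusted p = 0.00217) and PSG8 (0.60, limma adjusted p = 0.00668) were measured in both groups, and the second probe of PSG8 did not pass (limma adjusted p = 0.44). PSG11 went the other way, from -7.02 and -7.37 in the controls to -8.44 and -8.91 after knockdown. It was well above background on 1 control array alone and was not tested. PSG transcripts closely resemble each other, so a probe of one may detect others.

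The enzymes that build O-linked sugars on mucins moved in both directions. Among all genes tested 20.3% were higher and 29.5% lower. Of 36 genes of mucin-type O-glycosylation, 35 had a probe and 28 were tested, with 10 higher, 12 lower and a median of -0.01, and 5 of the 12 lower genes were above 0 without scaling. Without knockdown replicate 2 the counts were 6 higher and 7 lower. GalNAc-transferases, which add the first sugar to the protein, were split, with 6 higher, 3 lower and 3 neither. GALNT12 rose from -2.98 and -2.82 to -1.26 and -1.21 (log2 fold change 1.66, limma adjusted p = 0.00102). Of 8 sialyltransferases, which cap the chains, 4 were higher and 3 lower. ST3GAL1, which caps the core 1 sugar, had the largest fall of the list, from -3.84 and -3.73 to -6.35 and -6.71 (log2 fold change -2.74, limma adjusted p = 0.00117). ST6GALNAC1, the enzyme that makes the sialyl-Tn antigen, was not well above background in the controls and at -6.09 and -5.86 after knockdown, and was at least 2.64-fold higher. It entered the test only through the knockdown arrays. All 4 fucosyltransferases tested were lower with the scaling. Without it 2 of them were above 0 (FUT3 at 0.12 and FUT6 at 0.02). FUT1 was then at -0.03 and FUT2 at -1.13, so of these genes only FUT2 fell clearly on either scale. Of 4 core and extension enzymes 2 were lower and 0 higher.

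**Figure D4:**
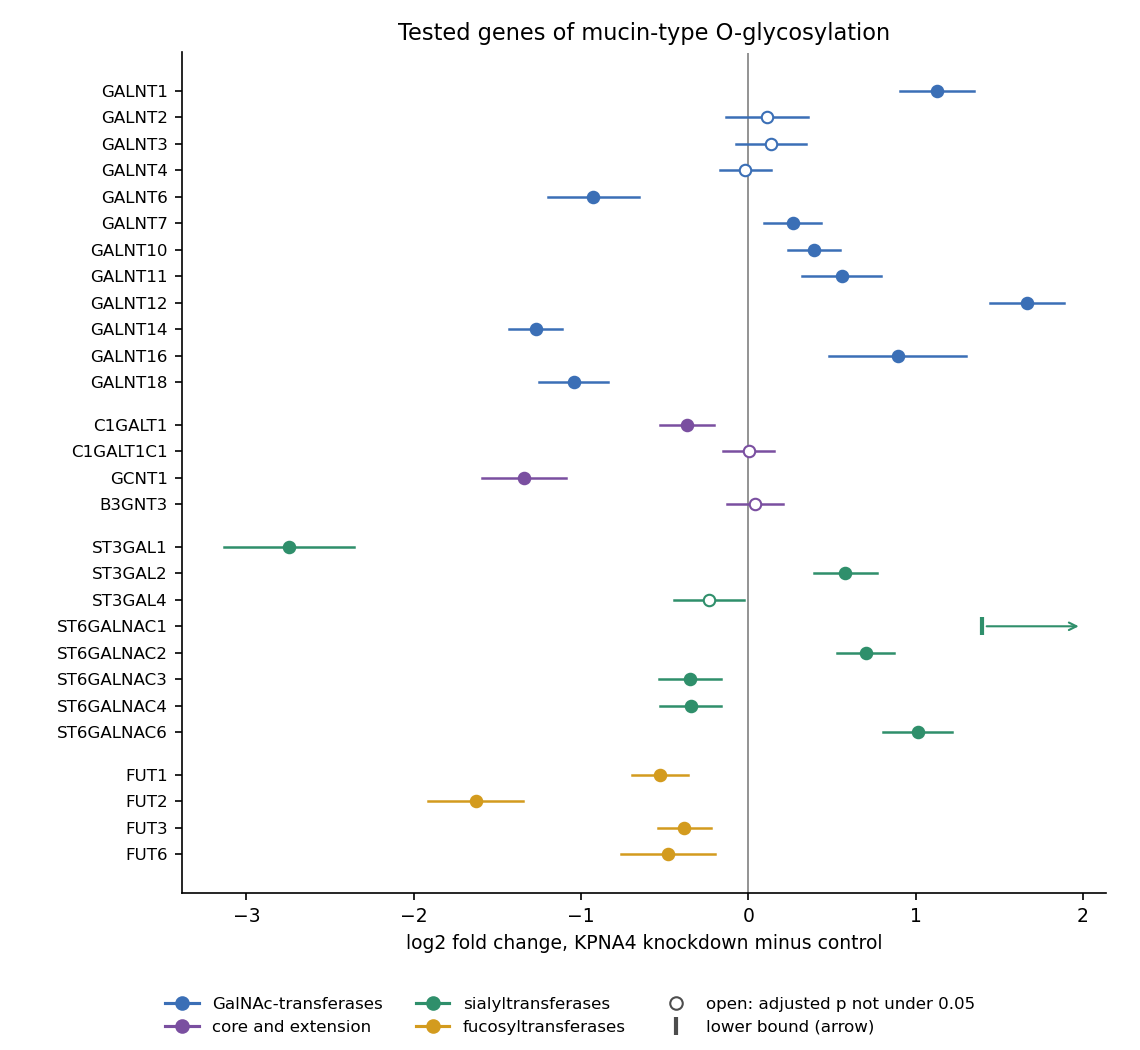
Log2 fold change (KPNA4 knockdown minus control, 2 arrays each) of the 28 tested genes of mucin-type O-glycosylation, grouped by the step they catalyze, with 95% confidence intervals. Filled points have a limma adjusted p under 0.05, and the arrow starts at the lower bound for ST6GALNAC1. The GalNAc-transferases and sialyltransferases lie on both sides of 0. The 4 fucosyltransferases lie below it on these scaled values, and without scaling only FUT2 fell clearly.

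Genes that anchor CEACAMs, bind or shed these proteins, or are known to regulate them were also listed. Their counts stand beside 20.3% higher and 29.5% lower among all genes tested. All 29 genes of GPI anchor synthesis were tested, with 7 higher, 5 lower and a median of -0.02. These counts did not hold with any 1 array left out, when 2 to 4 were higher and 2 to 3 lower, and without scaling 20 were higher and 1 lower. PGAP3, which remodels the lipid of the anchor, rose by 1.41 (limma adjusted p = 0.000717) and PIGL, which acts at an early step of its synthesis, by 1.29 (limma adjusted p = 0.00115), the latter on both of its probes. DPM3, a subunit of the dolichol-phosphate mannose synthase, was lower by its brighter probe (-1.08, limma adjusted p = 0.00129) and did not pass by the other (0.22, limma adjusted p = 0.0542). Of 18 partners and sheddases, all tested, 10 were higher and 5 lower, with a median of 0.30. Without knockdown replicate 1 there were 5 higher and 1 lower, and without knockdown replicate 2 there were 5 higher and 2 lower. ICAM1, another immunoglobulin adhesion molecule, fell from 1.28 and 1.38 to 0.26 and 0.23 (log2 fold change -1.08, limma adjusted p = 0.0016). JUP, a catenin of the desmosome, rose by 0.87 (limma adjusted p = 0.00444). The receptor ERBB3 rose by 0.95 by its brightest probe (limma adjusted p = 0.00343), while a second probe was lower (-0.26, limma adjusted p = 0.0401) and the last did not pass (limma adjusted p = 0.877).

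Of 24 transcription factors listed as regulators, 23 were tested, with 9 higher, 4 lower and a median of 0.17. The 4 lower became 2 without control replicate 2 or either knockdown array, and without scaling 17 were higher and 0 lower. FOXA1, a pioneer factor, rose from -3.85 and -3.90 to -1.63 and -1.57 (log2 fold change 2.27, limma adjusted p = 0.000421). FOXA2, its close relative, rose by 1.98 (limma adjusted p = 0.000696), and KLF5, a factor that binds CACCC and GC boxes, by 1.88 (limma adjusted p = 0.00208). Whether any of these factors acted on a mucin or CEACAM gene was not tested. Over the 6 lists together 41 of 112 tested genes were higher and 28 lower, where all genes had 20.3% higher and 29.5% lower. Without knockdown replicate 2 these counts were 27 and 14, and without knockdown replicate 1 15 were lower. Without scaling 74 were higher and 8 lower.

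Markers of other cells that carry mucins or CEACAMs were summed on each array, with MUC2 counted among both the goblet markers and the further mucins. Goblet and mucous cell markers, of which 9 had a probe, summed to 0.273 and 0.297 times the 75th percentile in the controls and to 0.426 and 0.44 after knockdown. That rise was AGR2, which folds mucins in the endoplasmic reticulum. AGR2 had values of -7.22 and -6.70 in the controls, of which 1 was well above background, and of -2.44 and -2.37 after knockdown, and the other 8 markers summed to 0.266 and 0.287 against 0.241 and 0.247. MUC2, TFF1, TFF3, SPDEF and FCGBP were well above background on all 4 arrays, with MUC2 and TFF1 (-0.30, limma adjusted p = 0.0274) lower, both above 0 without scaling. MUC5B, CLCA1 and BPIFB1 were well above background on none. Granulocyte markers, of which 9 had a probe, summed to 0.0981 and 0.118 in the controls and to 0.198 and 0.183 after knockdown. CSF3R (log2 fold change 1.25, limma adjusted p = 0.00425) and CXCR2 (0.57, limma adjusted p = 0.00829) rose and carried this sum, and the other 7 summed to 0.0317 and 0.0397 against 0.0345 and 0.032. FPR1 had a clear signal on all 4 arrays as well and did not pass, S100A12 had one on 1 knockdown array, and MPO, ELANE, AZU1, CEACAM3 and CEACAM8 had one on none. Beside 20.3% higher and 29.5% lower among all genes tested, 8 of the 10 squamous markers were higher and 1 lower. Their sum, 194 on both control arrays and 186 and 178 after knockdown, was mostly SFN, the lower one, which was above 0 without scaling. The other 9 summed to 11.6 and 12.1 in the controls and to 30.8 and 31.7 after knockdown, and KRT6A, a keratin of activated epidermis, rose by 6.94 (limma adjusted p = 0.000179). Other cell types were summed in the same way, controls first. Leukocyte markers gave 6.06 and 6.25 against 7.35 and 6.9, with 1 higher and 3 lower of 5 tested. Fibroblast markers gave 0.145 and 0.15 against 0.332 and 0.352, with 3 higher and 1 lower of 5 tested. Endothelial markers gave 0.101 and 0.0996 against 0.0712 and 0.0662, with 0 higher and 2 lower of 2 tested. The part of these markers in the member values was not tested.

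By the distance between the 4 array values, each centered on the gene's own mean, 14441 named genes with a clear signal on every array were set against MUC16 and MUC4. Nearest to MUC16 were NTN4 (0.0559), MANCR (0.0781) and SLC39A2 (0.0784). They rose by 1.88, 1.98 and 2.00 on the log2 scale, and 40 genes lay within a distance of 0.2. Rises close to that of MUC16 follow from choosing genes by this distance and are a description only. For MUC4, by its brightest probe, SNCB (0.055) and C4BPA (0.0557) were among the nearest, and 506 genes lay within the same distance. These distances rest on 4 arrays in 2 groups.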

How the data were processed

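RNA of 4 Ca9-22 cultures was measured on Agilent 1-color arrays. The authors deposited the Feature Extraction 11.0.1.1 output of each array, with a processed signal intensity, corrected for background and position but not scaled, and a table of ratios, found to be the processed intensity divided by the 75th percentile of the array. From the deposited intensities log2 values were taken here, outlier and control spots were left out (333 to 355 outliers among 43118 gene spots per array, 0 saturated), repeated spots were averaged, and each array was set relative to its 75th percentile. Between 70.2% and 71.0% of 34127 probes were well above background per array, and for arrays the number per group (2) limits the precision.

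Groups were taken from the labels. The test was lmFit and eBayes of limma 3.58.1 (R 4.3.3), with Benjamini-Hochberg adjustment over all genes or probes tested and a threshold of 0.05. A gene was represented by its brightest probe that passed the filter, and a gene well above background in only one group was given a bound. Probes were named through RefSeq accessions (25771 matched), on an assembly other than that of the array grid, so the table served for names, neighbors and promoter windows only. Each unmatched identifier was counted as a gene, and 15114 of the 19550 genes tested were named. The p-values measure the spread between cultures that the series calls biological replicates.

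The members and gene lists were chosen with earlier results of these data known. The genes named are the members, KPNA4, the 3 largest called changes in each list and the 3 nearest profiles of MUC16 and MUC4, of which 1 is not reported here. Markers, other probes, neighbors, PSG11 and the fucosyltransferases were named beside them after their values were seen. Alternatives were quantile, median or no scaling, normexp correction of the median spot intensity, the deposited table, each array left out, other thresholds, a block for the replicate number, a looser and a stricter filter, averaging the probes of a gene, and the trend and robust options of limma. The procedure was tested on simulated data. Protein sequences were not used here.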

Additional observations from a re-analysis of the deposited data

How the results depend on the processing

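With 2 arrays per group, leaving out 1 array assumes that the lone one varies like the other group. The arrays limit what can be said of dim members, since CEACAM6 and MUC16 probe A_33_P3313110 lacked a clear signal on a control array, and CEACAM6 could not be tested where all 4 arrays had to be well above background. MUC1 and MUC16 kept their direction under all 15 alternatives and their call under 14 of them. No member gene was lower under any of the 17 settings, which include other thresholds. The cause of the changes listed here was not tested.

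Under normexp correction KPNA4 was at -1.96 and lost its call, 0 member genes and 0 genes of the other lists were higher, and 0 of the lists were lower. Without scaling 5 member genes and 74 list genes were higher and 8 list genes lower. At an adjusted p under 0.01 the lists had 24 higher and 13 lower. With 1 array left out the counts ran from 2 to 4 for members, from 27 to 34 for list genes higher and from 14 to 23 for list genes lower, and KPNA4 from -1.97 to -1.67.

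Signs turned for the following values. Without scaling MUC4 was at 0.15, its probes A_24_P239177 and A_33_P3417281 at 0.0502 and 0.11, CEACAM1 probe A_33_P3268507 at 0.24 and CEACAM7 at 0.45. Under normexp correction A_33_P3417281 was at 0.27, A_33_P3268507 at 1.24 and CEACAM7 at 1.23. CEACAM7 was at 0.04 after quantile normalization, and CEACAM1 at -0.12 as the mean over its probes. With 1 array left out CEACAM1 ran from -0.18 to 0.25, CEACAM7 from -0.26 to 0.15 and CEACAM19 from -0.0758 to 0.43.

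The deviations of same-numbered arrays correlated at r = -0.03. With 2 arrays per group this value cannot show whether same-numbered cultures were paired, and the samples are known to share only a number. With the replicate number as a block 2 member genes were higher, as without it, the lists had 34 higher and 21 lower, and 7901 of all genes were called against 9736.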

Other observations

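The genes next to the members in the RefSeq order were looked up, and those named here were chosen after their values were seen. APOD, which lies between PPP1R2 and MUC20 on chromosome 3 and encodes a secreted lipid carrier, rose by 3.10 on the log2 scale (limma adjusted p = 0.00217). On its other side MUC4 had no change past the threshold (-0.35, limma adjusted p = 0.104), and TFRC, the transferrin receptor, was lower (-0.76, limma adjusted p = 0.00295). Near MUC15 on chromosome 11, BBOX1, an enzyme of carnitine synthesis, rose by 3.90 (limma adjusted p = 0.000322) and LUZP2 by 3.15 (limma adjusted p = 0.0018). OR7G1, an olfactory receptor gene near MUC16, rose by 1.45 (limma adjusted p = 0.00208). Around MUC1 the next genes on either side, TRIM46 and THBS3, rose by 0.48 and 0.41 (limma adjusted p = 0.0143 and 0.0107).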
